A study of Mus musculus with 359 samples.

Results

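The genes described here are 38 interferon-stimulated genes of the mouse, taken by name from a fixed list of gene symbols out of 24421 genes in each count table. The rule that lists them uses no measured value, although the list was drawn up with earlier results of these data known. All 38 were found and passed the filter on low counts in each of the 6 tables. The study gave 4-methylimidazole (4-MEI), a small heterocyclic compound formed when caramel colours and roasted foods are made, to male and female B6C3F1 mice, a hybrid of the C57BL/6 and C3H strains, and sequenced messenger RNA from liver and lung. The labels give no genetic change in any group, and none of the sources used here gives the ages of the mice. At day 2 mice of each sex had received 50, 100, 200 or 300 mg/kg-d of 4-MEI or vehicle by gavage. At day 5 and at day 28 they had received 150, 300, 1250 or 2500 ppm of 4-MEI or the vehicle control in feed. Each of the 60 groups held 6 libraries of 1 sex, organ, day and dose, except the lungs of females fed 2500 ppm for 5 days, with 5, which makes 359 libraries in all.

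Interferons are secreted proteins that warn cells of infection. Type I and type III interferons act through receptors that activate JAK kinases and a transcription factor complex with STAT2 and IRF9, which binds the interferon-stimulated response element (ISRE) of its target genes, while the response to interferon gamma runs through the gamma-activated site (GAS). The targets include sensors of viral RNA, the ubiquitin-like protein ISG15 and its enzymes, synthetases that switch on an RNase, and GTPases that attack viruses and intracellular parasites. Without infection the same genes keep a low tonic level, and in the liver both hepatocytes and the resident macrophages, called Kupffer cells, express them.

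The letters of the response element stand in the promoters of many of these genes. Of the 38 genes, 29 had a window in RefSeq's promoter table for GRCm38.p6, which runs from 250 bases before to 50 bases after a transcription start. The motif GAAANNGAAA, searched on both strands with overlapping matches counted, occurred in 19 of the 29 (65.5%), against 1079 of 27025 genes in the table (3.99%). The palindromic motif TTCNNNGAA, the letters of a GAS element, occurred in 6 of the 29 (20.7%), against 2582 of the 27025 (9.55%). A match is a description of the letters and not a test of binding. The 120 bases before the start are shown for 5 genes that fell in liver, all of them with a match in those bases. Irf7, Oasl1, Xaf1, Ifi35 and Herc6 fell in liver too and had no match to GAAANNGAAA in their windows. The sequences run 5′ to 3′ on the gene's strand, with matches to GAAANNGAAA or its reverse complement in capitals. They show tandem copies (Isg15, Oas1g), copies read on the other strand (Gbp3), a pair set apart (Ddx60) and a single copy (Igtp). They lie at chr4:156200819-156200938 (minus strand, Isg15), chr3:142559924-142560043 (plus strand, Gbp3, the first of its starts), chr5:120887614-120887733 (minus strand, Oas1g), chr8:61927967-61928086 (plus strand, Ddx60) and chr11:58199436-58199555 (plus strand, Igtp).
Isg15: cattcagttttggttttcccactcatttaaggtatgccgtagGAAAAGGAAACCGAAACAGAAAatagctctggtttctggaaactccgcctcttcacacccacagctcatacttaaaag
Gbp3: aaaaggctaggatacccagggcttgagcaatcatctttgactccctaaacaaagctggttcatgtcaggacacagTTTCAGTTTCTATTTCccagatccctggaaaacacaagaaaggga
Oas1g: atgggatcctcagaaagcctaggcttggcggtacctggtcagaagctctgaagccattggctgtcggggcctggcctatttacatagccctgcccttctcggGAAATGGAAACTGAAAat
Ddx60: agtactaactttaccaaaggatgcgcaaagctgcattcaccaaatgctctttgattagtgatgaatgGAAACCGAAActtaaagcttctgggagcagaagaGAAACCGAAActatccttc
Igtp: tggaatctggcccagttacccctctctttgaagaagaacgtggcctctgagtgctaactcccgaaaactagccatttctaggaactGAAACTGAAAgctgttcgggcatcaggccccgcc

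Several of the genes are neighbours on the chromosomes of GRCm38. The 3 Ifit genes lie within 99.3 kb of chromosome 19, Mx1 and Mx2 within 113.9 kb of chromosome 16, and Rsad2 and Cmpk2 within 37.1 kb of chromosome 12. Gbp2 and Gbp3 neighbour each other on chromosome 3. The 6 genes of the oligoadenylate synthetase family lie on chromosome 5. Oas1a and Oas1g belong to a family of near-identical copies whose reads a counter can split or drop, so their values are uncertain. The annotation lists Mx2 as a polymorphic pseudogene.

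Library totals ran between 7253910 and 22527309 counted reads. At day 28 the titles and the sample characteristics gave different doses for 96 and different sexes for 48 of the 120 libraries, and the titles were used. Y-linked genes matched the sex in the title in 359 of 359 libraries and Xist in 358, the exception being library 78 of the female lungs at 300 mg/kg-d, which held almost no Xist and almost no Y-linked reads. The summed level of hepatocyte markers had medians of 1.64 to 19.5 CPM (normalised counts relative to a library's scaled total) in the vehicle lungs and of 120640 to 173884 CPM in the vehicle livers. In the day 2 tables, libraries 64 (female, 200 mg/kg-d, liver and lung) and 66 (male, 300 mg/kg-d, lung) stood apart from their groups over all genes, and the vehicle female lung library 12 held 265 CPM of albumin. The numbers in the titles follow dose in blocks of 8, so that number order and dose cannot be told apart. Nothing in the labels says that libraries of a group are from separate animals, so p-values measure the spread between these libraries.

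Set against vehicle, the highest dose gave 34 calls over 12 contrasts of organ, day and sex (edgeR quasi-likelihood test, Benjamini-Hochberg adjusted p under 0.05 over all genes of the table), and all 34 were falls. Many other genes fell in the same day 2 contrasts. Of all genes tested, 14.7% fell in female livers, 6.47% in male livers and 5.09% in female lungs of day 2. In the other contrasts with a call the shares were smaller. They were 0.00779% and 0.759% in female livers of days 5 and 28, and 0.0895% in female lungs of day 28. The 34 falls were spread over 21 of the 38 genes, and 20 of the 21 fell in liver, the exception being Cxcl10, called in lung. Irf7, the transcription factor that amplifies interferon production, and Bst2, or tetherin, which holds budding virus on the cell surface, had 4 calls each. Oasl2, Ifit1, Ifit2, Oas1a, Oas2, Oas3, Rsad2, Stat2, Irf9, Ifi44, Mx2, Trim30a, Parp14, Parp9, Cmpk2, Gbp2 and Irgm1 had none. In bulk tissue, fewer cells of a type and less RNA per cell cannot be told apart.

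**Figure D1:**
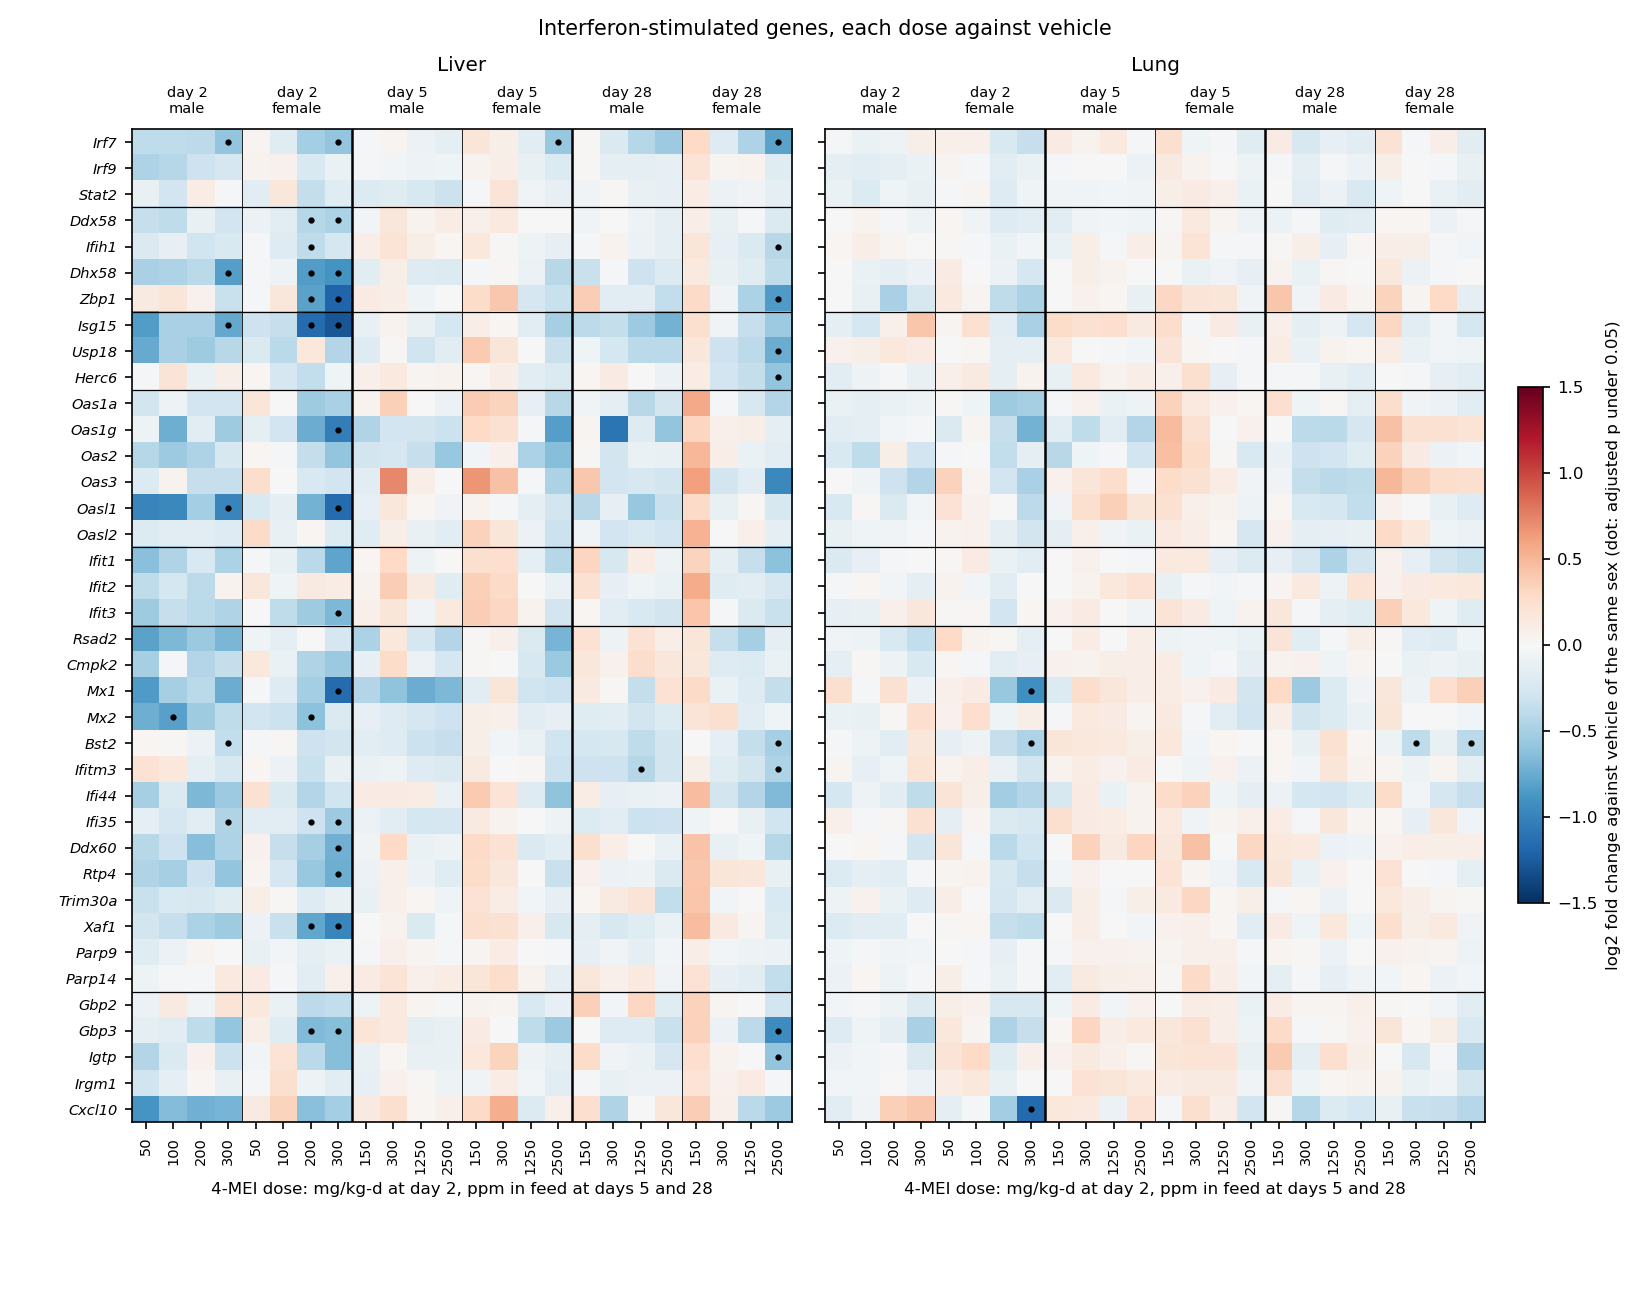
Log2 fold change of each of the 38 genes at each dose against the vehicle group of the same sex, organ and day. Rows are grouped by role, columns run from low to high dose, and a dot marks an adjusted p under 0.05. In the liver panel the dots gather in females, at 200 and 300 mg/kg-d of day 2 and at 2500 ppm of day 28. Male livers at 300 mg/kg-d have 6 dots. All dots stand on blue cells.

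In the livers of females given 300 mg/kg-d for 2 days, 14 of the 38 genes fell and none rose, where 14.7% of all genes tested fell. The log2 fold change was negative for 36 of the 38, with a median of -0.485, beside -0.02 over all genes. DESeq2 called 15 of them. Of the RNA and nucleic acid sensors 3 of 4 fell, of the ISG15 system 1 of 3, of the oligoadenylate synthetase family 2 of 6, of the Ifit family 1 of 3, of the transcription factors 1 of 3, of the other antiviral effectors 5 of 14, and of the genes known from the interferon gamma response 1 of 5.

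Among the sensors, Dhx58 (LGP2, which tunes the RIG-I-like receptors) measured 4.62 to 8.19 CPM (median 6.07) in the livers of females given 300 mg/kg-d, against 7.78 to 14.1 CPM (median 12.01) in vehicle females. It fell by 0.90 on the log2 scale (SE 0.19, adjusted p = 0.000258), although the lowest vehicle library lay inside the range of the dosed ones. Zbp1, which binds Z-form nucleic acid and triggers cell death, measured 1.83 to 6.96 CPM (median 3.97) in dosed females, against 6.97 to 12.5 CPM (median 9.39) in vehicle females. The ranges touched without overlap, and the fall was 1.204 on the log2 scale (SE 0.27, adjusted p = 0.000647). Ddx58, which encodes RIG-I, the sensor of viral RNA ends, measured 22.4 to 39.2 CPM (median 32.4) in dosed females, against 39.7 to 55.3 CPM (median 42.7) in vehicle females. Every dosed library was below every vehicle library, and the fall was 0.48 (SE 0.15, adjusted p = 0.0126).

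Isg15 itself, the ubiquitin-like modifier, measured 1.76 to 4.06 CPM (median 2.15) in females given 300 mg/kg-d, against 5.18 to 7.64 CPM (median 5.42) in vehicle females. The groups did not overlap, and Isg15 fell by 1.28 on the log2 scale (SE 0.25, adjusted p = 0.000133). Its deconjugating enzyme Usp18 and its ligase Herc6 were not called. Of the synthetase family, Oasl1, which in mice restrains the translation of Irf7, measured 3.22 to 5.62 CPM (median 3.39) in dosed females, against 5.89 to 13.1 CPM (median 8.61) in vehicle females. It fell by 1.15 (SE 0.30, adjusted p = 0.0029) with no overlap. Oas1g, one of the Oas1 copies, fell by 1.04 (SE 0.34, adjusted p = 0.0175), with groups that overlapped. Its values ran between 0.293 and 0.832 CPM in dosed females and between 0.481 and 1.6 CPM in vehicle females, a few reads per library.

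The effectors included Ifi35, a partner of the interferon-induced protein Nmi, at 17.4 to 24.4 CPM (median 20.6) in females given 300 mg/kg-d, against 27.3 to 32.6 CPM (median 30.2) in vehicle females. It fell by 0.54 (SE 0.10, adjusted p = 6.39e-05) and its groups did not overlap. Xaf1, which promotes cell death, measured 1.48 to 5.73 CPM (median 2.16) in dosed females, against 3.93 to 5.95 CPM (median 5.01) in vehicle females, and fell by 0.97 (SE 0.25, adjusted p = 0.00258). For Xaf1 the dosed library 75 lay in the vehicle range and the other 5 lay below it. Mx1, a dynamin-like GTPase known for blocking influenza virus, measured 0.235 to 0.616 CPM (median 0.365) in dosed females, against 0.388 to 1.17 CPM (median 0.979) in vehicle females, and fell by 1.15 (SE 0.36, adjusted p = 0.0116). Rtp4 fell by 0.73 and Ddx60, a helicase linked to RIG-I, by 0.72, with adjusted p of 0.0206 and 0.0385. Ifit3, whose human counterpart helps IFIT1 to bind foreign RNA caps, fell by 0.67 (SE 0.23, adjusted p = 0.0194). Its ranges overlapped, at 5.75 to 12.7 CPM in dosed females and 9.78 to 14.8 CPM in vehicle females. Gbp3, a guanylate-binding GTPase of the interferon gamma response, measured 3.58 to 14.5 CPM (median 5.42) in dosed females, against 7.69 to 12.5 CPM (median 10.2) in vehicle females, and fell by 0.64 (SE 0.23, adjusted p = 0.0309). Irf7 measured 8.58 to 21.7 CPM (median 12.99) in dosed females, against 20.1 to 22.3 CPM (median 22.1) in vehicle females, and fell by 0.59 (SE 0.20, adjusted p = 0.017). For Gbp3 the dosed library 75 lay above the vehicle range, for Irf7 the dosed library 80 lay inside it, and the other 5 dosed libraries of each gene lay below it.

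Over the 38 genes, 5 had every dosed female library below every vehicle library, where this was so for 6.38% of all genes tested. Library 75 of the dosed group lay above its group's mean for all 38 genes in liver. Without it 22 genes fell, and without both libraries 64 and 75, which share no group, 24 fell.

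In the livers of males given 300 mg/kg-d, 6 of the 38 genes fell and none rose, where 6.47% of all genes fell. The median log2 fold change was -0.36, beside -0.00159 over all genes, and 34 of the 38 were negative. Bst2 measured 59.01 to 86.7 CPM (median 74.6) in dosed males, against 88.4 to 105.4 CPM (median 97.9) in vehicle males, without overlap, a fall of 0.37 (SE 0.13, adjusted p = 0.0373). Dhx58 measured 5.16 to 8.58 CPM (median 5.9) in dosed males, against 7.43 to 15.4 CPM (median 11.3) in vehicle males, and fell by 0.82 (SE 0.19, adjusted p = 0.00242). Ifi35 fell by 0.46 (SE 0.10, adjusted p = 0.00181), with 20.2 to 25.3 CPM in dosed males and 23.3 to 35.4 CPM in vehicle males. Those groups overlapped, as did those of Dhx58 and of the 3 genes that follow. For Oasl1 and Isg15 only 2 of the 6 dosed libraries lay below every vehicle library. Oasl1 fell by 0.99, Irf7 by 0.59 and Isg15 by 0.77 (SE 0.30, 0.20 and 0.27; adjusted p = 0.0194, 0.0354 and 0.045). Without library 66 of the dosed males 2 genes were called.

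Below the highest gavage dose, females given 200 mg/kg-d had falls in 9 genes, where 6.78% of all genes fell. Isg15 measured 0.635 to 4.24 CPM (median 2.72) in females given 200 mg/kg-d, against 5.18 to 7.64 CPM in vehicle females, a fall of 1.16 (adjusted p = 0.00253). Dhx58 fell by 0.84, Zbp1 by 0.80, Xaf1 by 0.78, Ifih1 by 0.39 and Ifi35 by 0.31 (adjusted p between 0.0028 and 0.0358), and Gbp3, Mx2 and Ddx58 fell too. Library 64 was the lowest of its group for all 9. In males 1 gene fell below the highest dose, Mx2 at 100 mg/kg-d, where 2.25% of all genes fell. Mx2 measured 3.11 to 5.44 CPM (median 3.84) in those males, against 5.42 to 10.3 CPM (median 6.42) in vehicle males, a fall of 0.81 (SE 0.22, adjusted p = 0.0209). Without library 64 these 10 calls became 5, and a fit of only these groups gave 1. Males given 50 mg/kg-d had no call, yet 35 of the 38 fold changes were negative (median -0.36) and 13 had an unadjusted p under 0.05.

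After 5 days of feed the calls were fewer. In the livers of females fed 2500 ppm only Irf7 fell, where 0.00779% of all genes, Irf7 alone, fell. Irf7 measured 16.9 to 25.4 CPM (median 20.3) in those females, against 30.03 to 31.6 CPM (median 31.1) in vehicle females. The groups were apart, and the fall was 0.57 (SE 0.12, adjusted p = 0.0165). DESeq2 gave no adjusted p for Irf7 there and called none of the 38, and a fit of those groups alone called none. Of the 38 fold changes 37 were negative, with a median of -0.29 and 18 unadjusted p under 0.05. In males fed 2500 ppm 0 of the 38 were called in liver, where 0.405% of all genes were, with 5 unadjusted p under 0.05 and 0 calls by DESeq2.

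After 28 days, 9 of the 38 genes fell in the livers of females fed 2500 ppm, where 0.759% of all genes fell. All 38 log2 fold changes were negative, with a median of -0.34 beside 0.00482 over all genes, and DESeq2 called 11. The 9 took in 2 of 3 genes of the ISG15 system, 2 of 4 sensors, 2 of 5 genes of the interferon gamma response, 2 of 14 other effectors and 1 of 3 transcription factors, and none of the synthetase or Ifit families.

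Irf7 measured 14.9 to 19.8 CPM (median 18.01) in the livers of females fed 2500 ppm for 28 days, against 25.9 to 36.8 CPM (median 31.2) in vehicle females. The groups were apart, and the fall was 0.80 (SE 0.13, adjusted p = 7.51e-05). Gbp3 measured 6.06 to 10.9 CPM (median 9.15) in those females, against 14.4 to 19.5 CPM (median 16.2) in vehicle females. It fell by 0.95 (SE 0.15, adjusted p = 5.82e-05), also without overlap. Igtp, an immunity-related GTPase that guards against vacuolar parasites, measured 32.5 to 48.7 CPM (median 41.1) in fed females, against 52.4 to 76.7 CPM (median 60.9) in vehicle females. Those groups were apart too, and the fall was 0.60 (SE 0.14, adjusted p = 0.0143), a call that was lost without vehicle library 176.

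Ifitm3, which stops virus fusion in endosomes, measured 154.2 to 180.5 CPM (median 166) in females fed 2500 ppm, against 202 to 243 CPM (median 235) in vehicle females. It fell by 0.46 (SE 0.09, adjusted p = 0.00226) with no overlap. Bst2 measured 69.4 to 88.1 CPM (median 75.7) in fed females, against 91.7 to 117.9 CPM (median 112.7) in vehicle females, and fell by 0.50 (SE 0.11, adjusted p = 0.00521). Zbp1 measured 3.79 to 8.57 CPM (median 5.8) in fed females, against 9.33 to 12.3 CPM (median 10.49) in vehicle females, and fell by 0.85 (SE 0.19, adjusted p = 0.00983). Neither gene's groups overlapped.

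Herc6, the mouse ligase for ISG15, measured 11.1 to 16.97 CPM (median 13.7) in females fed 2500 ppm, against 17.4 to 23.2 CPM (median 20.7) in vehicle females, and fell by 0.59 (SE 0.12, adjusted p = 0.00423). Usp18, which removes ISG15 and damps the interferon receptor, measured 6.83 to 12.7 CPM (median 9.23) in fed females, against 11.8 to 19.8 CPM (median 16.02) in vehicle females. It fell by 0.74 (SE 0.15, adjusted p = 0.00236), with ranges that overlapped at 1 edge. Ifih1, or MDA5, the sensor of long double-stranded RNA, measured 35.5 to 50.0 CPM in fed females, against 48.1 to 58.4 CPM in vehicle females, and fell by 0.42 (SE 0.09, adjusted p = 0.0105). Without overlap between the groups were 8 of the 38 genes, where 0.961% of all genes were so placed below vehicle. The eighth was Ifit1, which was not called, at 3.96 to 8.98 CPM in fed females and 9.61 to 12.9 CPM in vehicle females (log2 fold change -0.61, SE 0.20, adjusted p = 0.105).

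**Figure D2:**
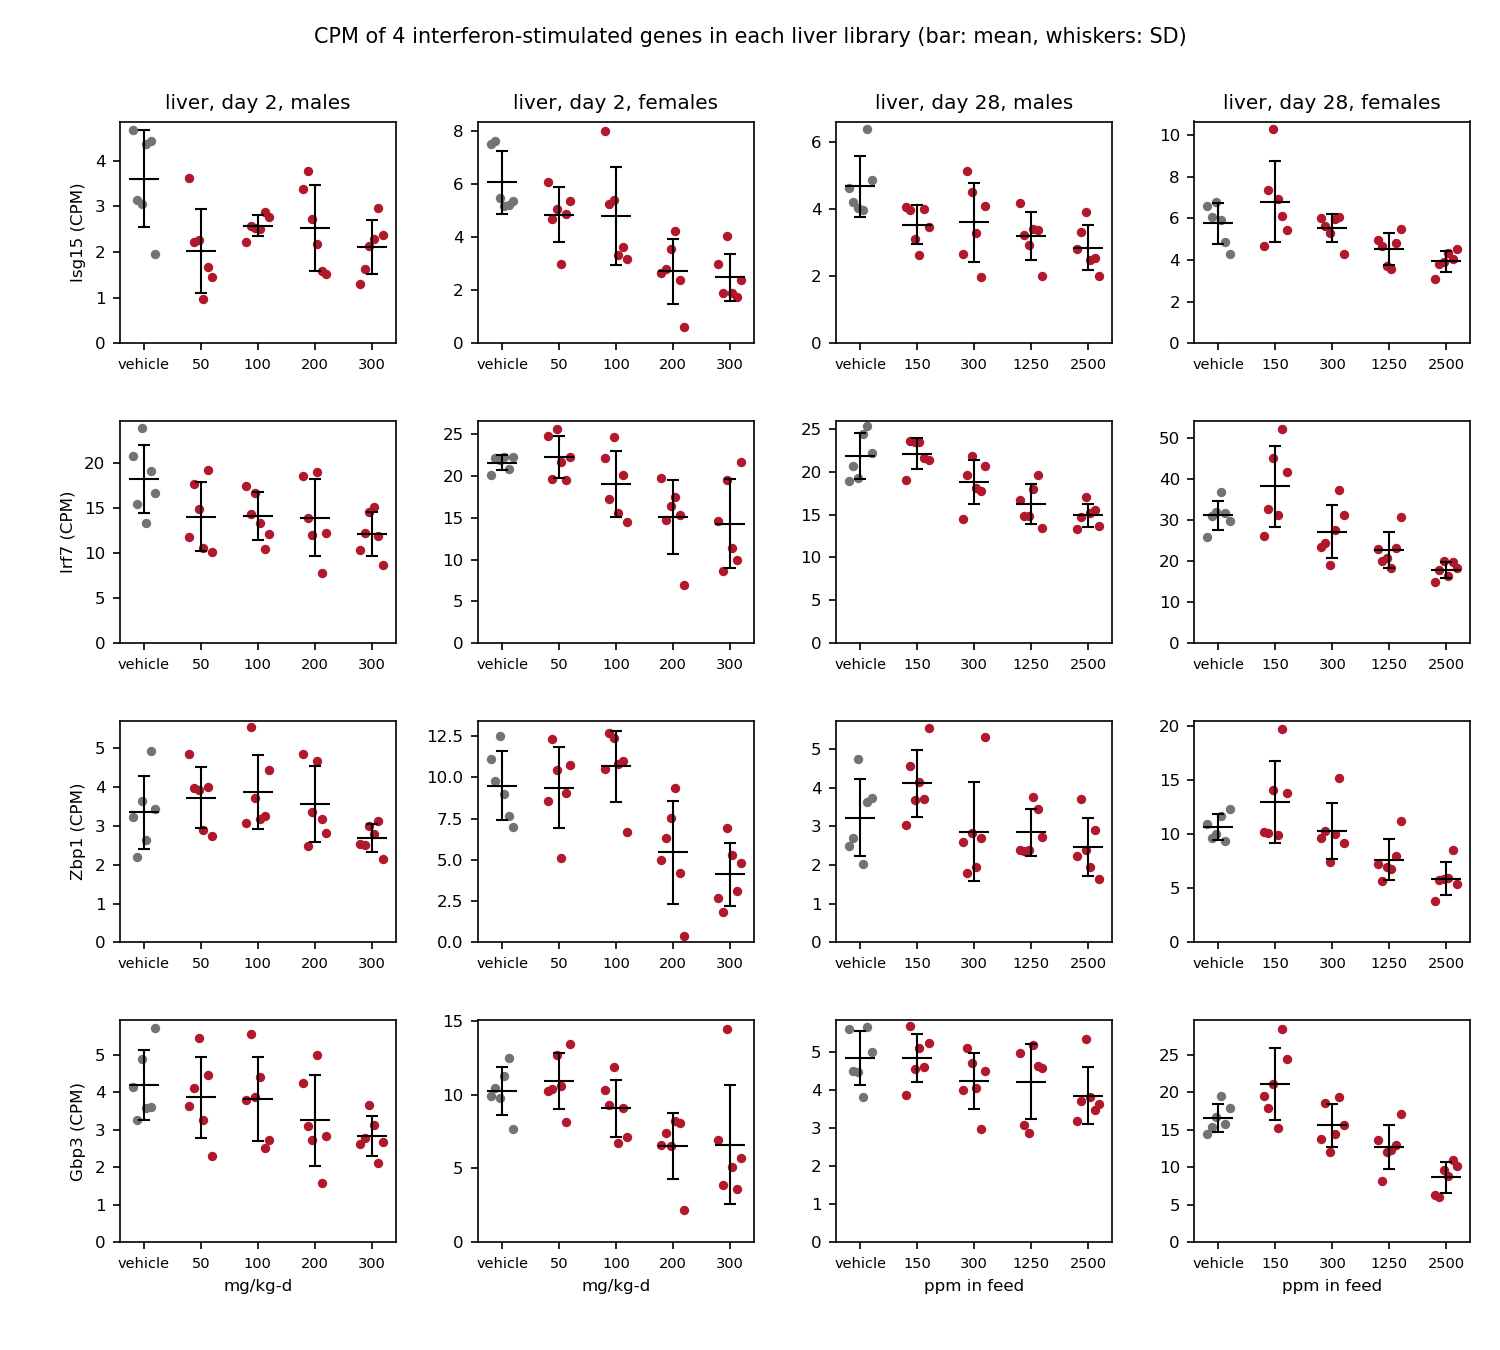
Normalised level in CPM of Isg15, Irf7, Zbp1 and Gbp3 in each liver library, with dose on the x axis and columns for days 2 and 28 and each sex. Points are libraries (grey for vehicle, red for dosed), bars are means and whiskers SD of 6 libraries. At day 28 the females fed 2500 ppm lie below all vehicle females for Irf7, Zbp1 and Gbp3.

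In females the genes that fell at the highest dose on day 2 and on day 28 shared 3 names, Irf7, Zbp1 and Gbp3, which are 21.4% of the 14 of day 2 and 33.3% of the 9 of day 28. An overlap near this size can arise from 14 and 9 of the same 38 genes by list size alone, and it was not tested. The day 2 mice were dosed by gavage and the day 28 mice in feed, so day, dose and route cannot be told apart. In males fed 2500 ppm for 28 days 0 of the 38 were called in liver, where 0.0775% of all genes were, with 7 unadjusted p under 0.05 and 1 call by DESeq2. Irf7 measured 13.3 to 17.1 CPM (median 14.9) in those males, against 18.9 to 25.3 CPM (median 21.4) in vehicle males. The groups did not overlap, and the log2 fold change was -0.55 (SE 0.13, adjusted p = 0.109).

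Lower feed doses gave 1 call in liver. Ifitm3 measured 143.8 to 179 CPM (median 165) in males fed 1250 ppm for 28 days, against 164 to 307 CPM (median 225) in vehicle males, and fell by 0.43 (SE 0.09, adjusted p = 0.0321), where 0.116% of all genes fell. A fit of those groups alone gave no call, and DESeq2 called 5 genes at the lower doses of day 28. In the other 15 of the 18 lower-dose liver contrasts none of the 38 was called, where 0.0302% of all genes were, pooled, with 0 to 16 unadjusted p under 0.05 in each. Livers of females fed 150 ppm showed positive fold changes for 33 of the 38 genes at day 5 and 36 at day 28. The medians were 0.15 and 0.29, with 6 and 16 unadjusted p under 0.05 and no call. Males fed 150 ppm had 11 and 22 positive. At 300 ppm 35 were positive in female livers and 29 in male livers at day 5, but 11 and 9 at day 28. In lungs of females fed 150 ppm 34 and 32 were positive at days 5 and 28. Median Irf7 in female livers at day 28 was 31.2 CPM with vehicle, 37.2 CPM at 150 ppm, 25.9 CPM at 300 ppm, 21.8 CPM at 1250 ppm and 18.01 CPM at 2500 ppm. In male livers the same medians were 21.4, 22.5, 18.9, 15.8 and 14.9 CPM. Both sexes thus had their highest median at 150 ppm and their lowest at 2500 ppm.

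A linear trend over the 5 dose steps, averaged over the sexes, used all libraries of a table. In liver at day 2, 21 of the 38 genes fell with dose, where 20.5% of all genes fell. Dhx58 fell by 0.21 per step (SE 0.03, adjusted p = 1.9e-07), Isg15 by 0.23, Xaf1 by 0.20 and Irf7 by 0.15. At day 28, 19 of the 38 fell with dose, where 2.11% of all genes fell. Irf7 fell by 0.195 per step (adjusted p = 1.15e-09), Gbp3 by 0.175, Zbp1 by 0.19, Usp18 and Isg15 by 0.16 each, Ifitm3 and Bst2 by 0.10 each. Families that had no call at the highest dose of day 28 entered with the trend, Ifit1 (0.11 per step), Ifit3 (0.105) and, of the synthetases, Oas3 (0.195) and Oas1a (0.13), with adjusted p between 0.0112 and 0.0383. The 2 days shared 12 of these genes, which is 57.1% of the day 2 genes and 63.2% of the day 28 genes. An overlap near this size can arise from 21 and 19 of the same 38 genes by list size alone, and it was not tested. At day 5, 5 fell with dose, where 0.615% of all genes fell, and they were Irf7, Dhx58, Gbp3, Oas2 and Ifitm3. Irf7 fell there by 0.09 per step (adjusted p = 0.00276), and without the filter on low counts 1 of the 5 calls was left.

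In lung the highest dose gave 4 calls among the 38 in all. In females given 300 mg/kg-d 3 of the 38 fell, where 5.09% of all genes fell, with 33 negative fold changes and a median of -0.24. Bst2 measured 37.3 to 53.3 CPM (median 45.7) in those lungs, against 57.01 to 74.2 CPM (median 60.5) in vehicle females, without overlap, and fell by 0.46 (SE 0.15, adjusted p = 0.0383). Cxcl10, the chemokine that draws T cells and natural killer (NK) cells, measured 0.191 to 1.94 CPM (median 0.392) in dosed females, against 0.893 to 2.78 CPM (median 1.17) in vehicle females, and fell by 1.17 (SE 0.38, adjusted p = 0.0397). Mx1 measured 0.502 to 1.45 CPM (median 0.817) in dosed females, against 1.19 to 2.36 CPM (median 1.71) in vehicle females, and fell by 0.91 (SE 0.27, adjusted p = 0.0244). These counts hang on single libraries. They were 1 without vehicle library 12 or dosed library 78, 6 without library 64, 9 without library 66, 10 without library 75 and 15 without both 64 and 75. A fit of the compared groups alone called 12.

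Markers of lymphocytes moved in the same lungs. All 8 NK cell markers fell, with a summed level of 12.3 to 41.8 CPM (median 19.5) in females given 300 mg/kg-d, against 38.5 to 80.3 CPM (median 52.1) in vehicle females. Of 7 T cell markers 4 fell, with sums of 17.1 to 54.5 CPM in dosed females and 40.5 to 54.4 CPM in vehicle females, and Siglech, a marker of plasmacytoid dendritic cells, fell as 1 of 6 tested. Of 6 B cell markers none was called and all 6 fold changes were negative, with sums of 14.5 to 113.5 CPM (median 21.95) in dosed females and 34.7 to 71.3 CPM (median 44.0) in vehicle females. No marker of these lists was at 0 over either group. In male lungs at 300 mg/kg-d the NK cell sum was 10.9 to 22.8 CPM (median 13.6). In vehicle males it was 25.3 to 33.3 CPM (median 29.5), without overlap. The T cell medians were 22.4 CPM in dosed and 32.3 CPM in vehicle males, with overlapping ranges. The B cell medians were 23.2 and 33.8 CPM, also with overlap. None of the 38 genes was called in the dosed male lungs. The part of these markers in the falls of Bst2, Cxcl10 and Mx1 in females was not tested.

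In male lungs at 300 mg/kg-d 0 of the 38 were called, where 0.21% of all genes were, with 1 unadjusted p under 0.05 and 0 calls by DESeq2. Library 66 of that group was high, with 17.3 CPM of Isg15 and 139.4 CPM of Bst2. At day 5 the lungs gave 0 calls among the 38 in males fed 2500 ppm, where 0% of all genes were called, and 0 in females, where 0.0319% were, with 2 and 3 unadjusted p under 0.05 and 0 calls by DESeq2 in each. At day 28 the males fed 2500 ppm gave 0 calls, where 0.0128% of all genes were called, with 3 unadjusted p under 0.05 and 0 calls by DESeq2. In the females Bst2 alone fell, where 0.0895% of all genes fell. It measured 56.1 to 63.6 CPM (median 60.2) in lungs of females fed 2500 ppm, against 63.4 to 92.4 CPM (median 77.9) in vehicle females, a fall of 0.41 (SE 0.09, adjusted p = 0.0327). It fell as well at 300 ppm, where 0.141% of all genes fell, to 47.5 to 72.3 CPM (median 61.9), by 0.38 (SE 0.09, adjusted p = 0.0463). Both calls were lost without vehicle library 176 of day 28.

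In the other 17 of the 18 lower-dose lung contrasts none of the 38 was called, where 0.328% of all genes were, pooled, with 0 to 11 unadjusted p under 0.05 in each. DESeq2 called 2 of the 38 over all lower-dose contrasts of lung at day 28 and 0 at days 2 and 5. The trend with dose in lung fell for 7 genes at day 2, where 8.98% of all genes fell. They were Gbp3, Trim30a, Ifi44, Zbp1, Mx1, Oas1a and Ddx60, and without library 66 they became 16. At day 5 the trend called 0 of the 38, where 1.06% of all genes were called, with 6 unadjusted p under 0.05 and 0 calls by DESeq2. At day 28 it called Ifit1 alone, the sensor of foreign caps, with a fall of 0.095 per step (adjusted p = 0.0132), where 0.0192% of all genes fell.

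The fall at the highest dose was called in more genes in females, but the difference of the dose effect between sexes was called for 0 of the 38 genes in each of the 6 tables. All genes called for it were 0.00792% in liver at day 2, 0% at day 5 and 0.0387% at day 28, and 0% in lung at each day. The unadjusted p was under 0.05 for 1, 2 and 4 of the 38 in liver and for 6, 1 and 3 in lung at days 2, 5 and 28, and DESeq2 called 0 in each.

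The difference of the dose effect between organs, liver minus lung, was tested in a joined fit of each day. In males at day 2 it was called for 3 of the 38, where 8.26% of all genes were called. It was -1.13 for Isg15 (SE 0.36, adjusted p = 0.0371), -0.69 for Dhx58 (SE 0.23, adjusted p = 0.0425) and -0.64 for Ifi35 (SE 0.16, adjusted p = 0.00996). Without number 66 in both organs none of the 38 was called and 2 had an unadjusted p under 0.05. With the title number as a replicate block none was called either and 8 had an unadjusted p under 0.05. In females at day 2 it was called for 0, where 5.91% of all genes were called, with 4 unadjusted p under 0.05. Without both numbers 64 and 75 it was called for 3. At day 5 it was called for 0 in males (0.0062% of all genes, 4 unadjusted p under 0.05) and 0 in females (0.0062% of all genes, 4 unadjusted p under 0.05). At day 28 it was called for 0 in males (0.0805% of all genes, 6 unadjusted p under 0.05) and 0 in females (0.328% of all genes, 10 unadjusted p under 0.05). DESeq2 was not run on the joined tables.

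Vehicle livers differed by sex. Vehicle females exceeded vehicle males in 7 of the 38 genes at day 2, where 7.32% of all genes were higher, in 26 at day 5, where 10.6% were, and in 24 at day 28, where 11.5% were, and no gene of the 38 was lower. The day 2 count was 12 without libraries 64 and 75 and 11 when only the groups compared were fitted. Gbp3, Zbp1, Gbp2 and Ifit3 were among the called genes on each day.

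Gbp3 measured 14.4 to 19.5 CPM (median 16.2) in vehicle female livers at day 28, against 3.82 to 5.67 CPM (median 4.77) in vehicle male livers. The sexes were far apart, with a log2 difference of 1.77 (SE 0.16, adjusted p = 1.94e-13), beside 1.73 at day 5 and 1.28 at day 2. Zbp1 measured 9.33 to 12.3 CPM (median 10.49) in females at day 28, against 2.02 to 4.73 CPM (median 3.16) in males, a log2 difference of 1.73, beside 1.57 at day 5 and 1.48 at day 2. Gbp2, another guanylate-binding protein, measured 5.74 to 7.88 CPM (median 7.12) in females at day 28, against 1.64 to 3.78 CPM (median 2.93) in males, a log2 difference of 1.28. For all 3 genes the sexes did not overlap at any day in liver. Ifit3 was higher in females by 0.86, 0.99 and 1.03 on the log2 scale at days 2, 5 and 28. Ifi44 and Ifit1 were called at days 5 and 28, with log2 differences of 1.14 and 0.97 at day 5 and of 1.30 and 1.17 at day 28. At day 2 their differences were 0.43 and 0.77 (adjusted p = 0.263 and 0.116).

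In lung none of the 38 differed between vehicle females and vehicle males at any day, where 0.164%, 0.293% and 0.364% of all genes did at days 2, 5 and 28. The unadjusted p was under 0.05 for 2, 18 and 17 of them, and DESeq2 called 0, 4 and 0. Gbp2 measured 86.9 to 99.7 CPM (median 92.7) in vehicle female lungs at day 2, against 72.3 to 101.6 CPM (median 92.6) in vehicle male lungs. The difference itself, the sex effect in liver minus that in lung, was called for 4 of the 38 at day 2 (4.76% of all genes), 15 at day 5 (7.84%) and 9 at day 28 (6.66%). It was 1.12, 1.56 and 1.41 for Gbp3 at the 3 days and 1.25, 1.37 and 1.33 for Zbp1.

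**Figure D3:**
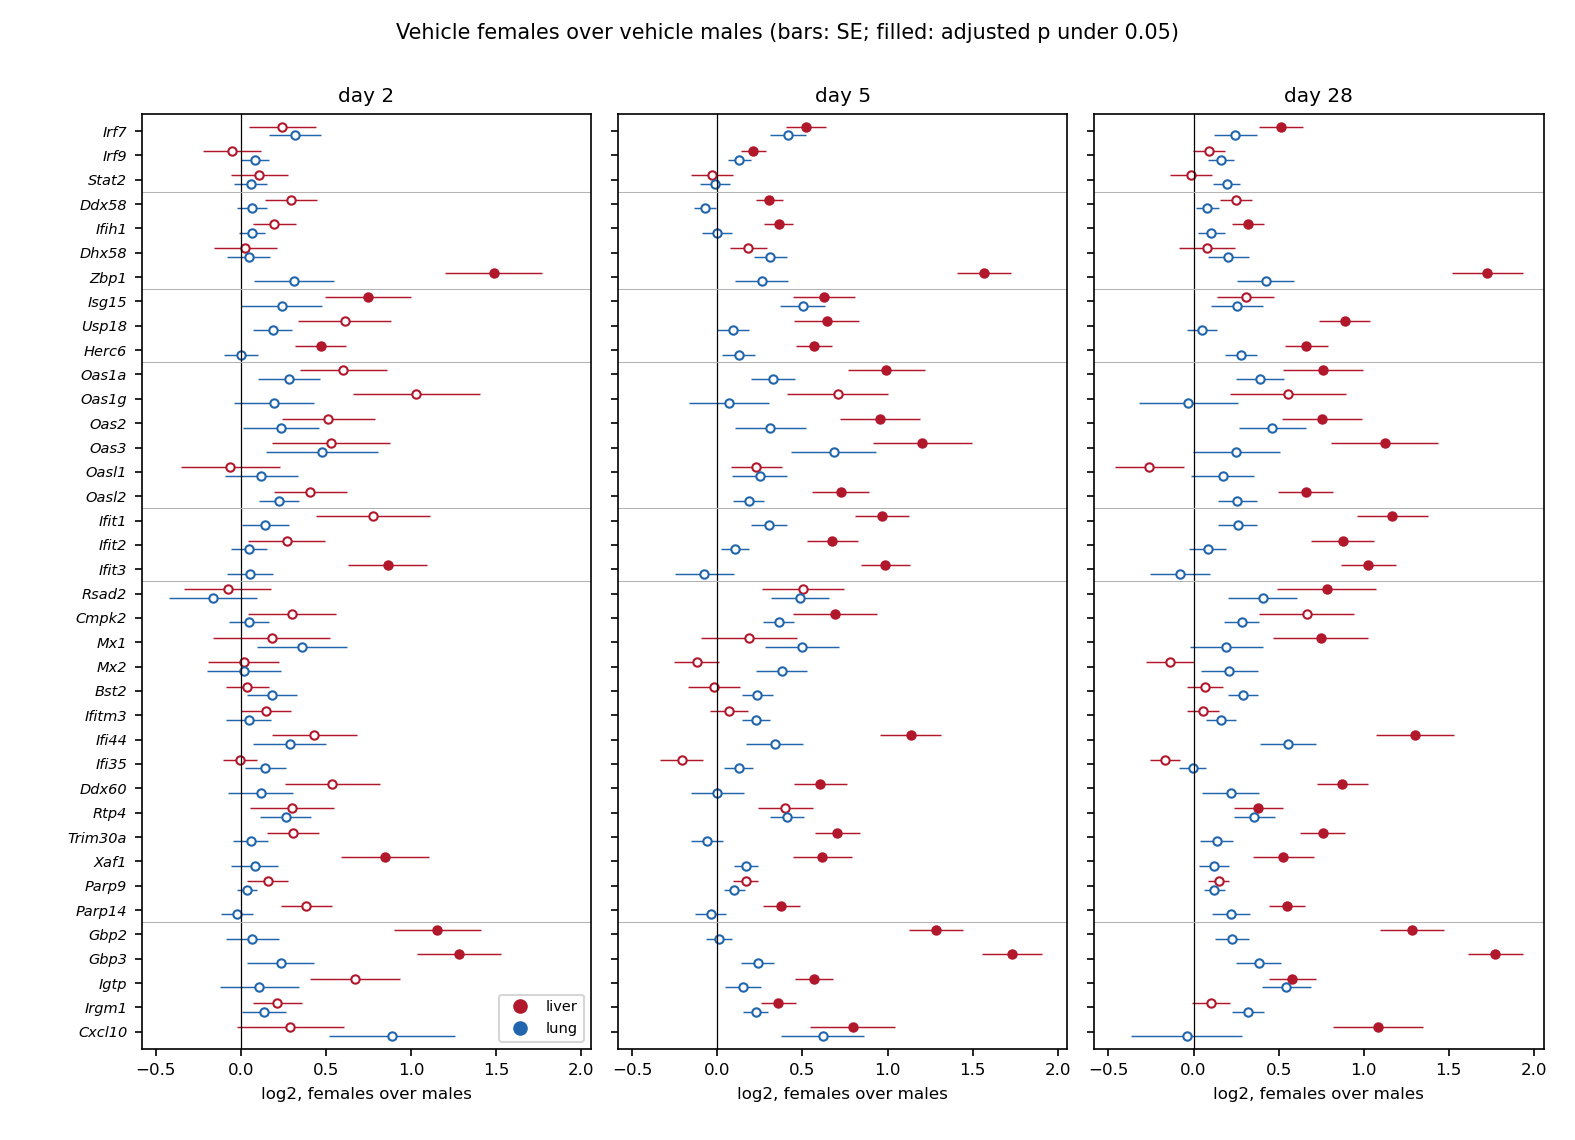
Log2 difference of vehicle females over vehicle males for the 38 genes at days 2, 5 and 28, in liver (red) and lung (blue), with bars of 1 SE. Filled points have an adjusted p under 0.05. The filled points are all in liver and all to the right of 0, with Gbp3 and Zbp1 farthest out at days 5 and 28.

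In vehicle livers 7.32%, 10.6% and 11.5% of all genes were higher in females at days 2, 5 and 28. Markers of Kupffer cells followed the sexes in these livers. All 10 were higher in vehicle females at each day, with summed levels of 290 to 426 CPM in vehicle females and 217 to 289 CPM in vehicle males at day 2, 439 to 540.3 CPM in vehicle females and 229 to 353 CPM in vehicle males at day 5, and 337 to 443 CPM in vehicle females and 183 to 263 CPM in vehicle males at day 28. Across dose the sum was 237 to 427 CPM (median 279) in females given 300 mg/kg-d, against 290 to 426 CPM (median 347) in vehicle females. Of the 10 markers 3 were called, and in that contrast 14.7% of all genes fell. At day 5 the sum was 317 to 466 CPM (median 389) in females fed 2500 ppm. In vehicle females of day 5 it was 439 to 540.3 CPM (median 476). At day 28 the sum was 275 to 360.1 CPM (median 313) in females fed 2500 ppm, against 337 to 443 CPM (median 378) in vehicle females, with all 10 fold changes negative and 0 of 10 called. No marker of the Kupffer list was at 0 in any of these groups. Sums of some other cell types' markers were higher in vehicle female livers of day 5 too. At day 5 the summed NK cell markers were 2.53 to 4.77 CPM in vehicle females and 0.754 to 2.2 CPM in vehicle males, with both genes tested higher, and the monocyte markers 1.79 to 2.5 CPM in vehicle females and 0.658 to 1.61 CPM in vehicle males. The hepatocyte sum was 166653 to 190261 CPM in vehicle females and 108659 to 159433 CPM in vehicle males, with 1 of its 5 genes higher and 2 lower. None of these 3 sums overlapped between the sexes at day 5, but all 3 did at day 28. The NK cell sums of day 28 were 1.53 to 3.37 CPM in vehicle females and 0.871 to 2.04 CPM in vehicle males. At day 2 the NK cell and monocyte sums overlapped as well. The T cell sums overlapped at day 5, at 3.5 to 5.48 CPM in vehicle females and 3.16 to 6.2 CPM in vehicle males. The part of these markers in the sex difference and in the falls with dose was not tested.

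Between the organs most genes of any kind differed, and the 38 did so in both directions. In vehicle mice 11 were higher and 22 lower in lung than in liver at day 2 (91.3% of all genes were called), 11 and 21 at day 5 (90.4%), and 13 and 21 at day 28 (90.2%). Gbp2 measured 86.9 to 99.7 CPM in vehicle female lungs at day 2, against 3.58 to 7.06 CPM in vehicle female livers. Over both sexes it was higher in lung by 3.33, 2.74 and 3.06 on the log2 scale at days 2, 5 and 28. Ifit2 measured 42.4 to 48.4 CPM in vehicle female lungs at day 2, against 2.72 to 4.05 CPM in the livers. Oasl1 went the other way, with 1.21 to 2.49 CPM in vehicle female lungs at day 2, against 5.89 to 13.1 CPM in the livers, and was lower in lung by log2 differences of -3.55, -3.04 and -2.92. Oasl2, its paralogue, was higher in lung by 2.50, 2.10 and 2.21. The antiviral nucleotide enzyme gene Cmpk2 and the tripartite-motif gene Trim30a were higher in lung as well, by 1.495 and 1.61 at day 2. Lower in lung at day 2 were Mx2 (-2.62), Igtp (-2.13), Bst2 (-2.01), Cxcl10 (-1.86) and Irgm1, which regulates the other immunity-related GTPases (-1.74). Scaling by DESeq2's size factors moved the median of all genes between organs to 0.33, against 0.20 with the main scaling, and gave 12 higher and 20 lower at day 2.

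**Figure D4:**
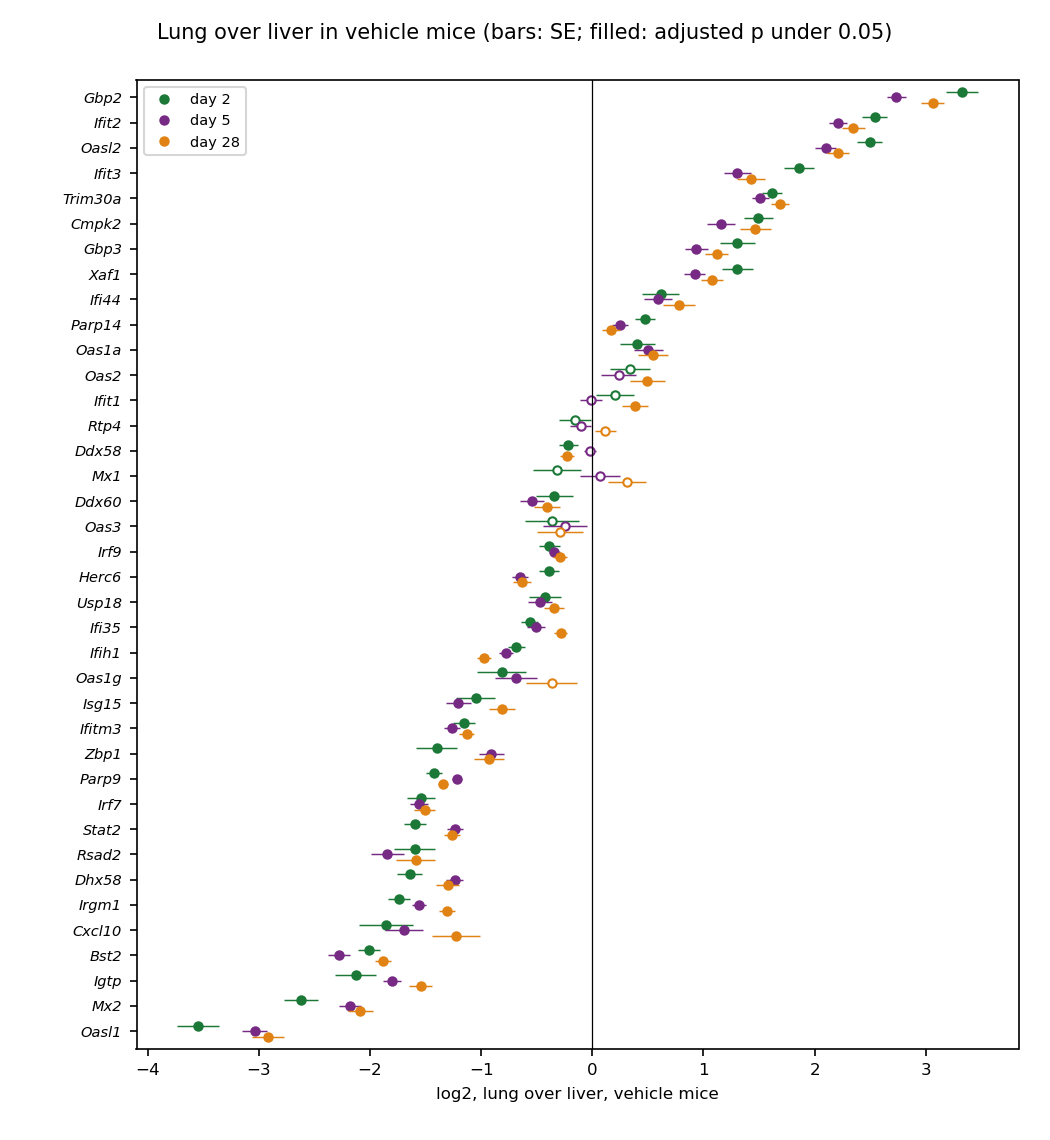
Log2 difference of lung over liver in vehicle mice for the 38 genes at the 3 days, averaged over the sexes, with bars of 1 SE. Filled points have an adjusted p under 0.05. Gbp2 lies near 3 and Oasl1 near -3 at each day, and family members such as Oasl1 and Oasl2 lie on opposite sides.

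Between the vehicle groups of the feed study, 4 of the 38 differed in liver at day 28 against day 5, where 19% of all genes did. Rtp4, Isg15 and Gbp2 were lower at day 28, with log2 differences of -0.35, -0.36 and -0.33, and Parp9 was higher by 0.13. Without the filter on low counts 1 of the 4 was called. In lung 0 of the 38 differed, where 1.75% of all genes did, with 2 unadjusted p under 0.05.

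Within groups the 38 genes tended to vary together from library to library, least so in liver at day 5. Deviations from the group mean (log2 CPM) were correlated over their 703 pairs. The medians were 0.46, 0.17 and 0.23 in liver and 0.43, 0.29 and 0.31 in lung at days 2, 5 and 28. Positive pairs made up 97.4%, 74.3% and 85.6% in liver and 93.9%, 85.8% and 88.8% in lung. For 2000 other genes the medians lay within 0.01 of 0, with a wide spread of single pairs. Their 5% to 95% ranges were -0.551 to 0.557 in liver at day 5 and -0.367 to 0.375 at day 28. The closest pairs were Irf9 and Igtp in liver at day 2 (r = 0.89), Igtp and Irgm1 in lung at day 2 (r = 0.90), Bst2 and Ifitm3 in liver at day 5 (r = 0.87), and the neighbours Rsad2 and Cmpk2 in liver at day 28 (r = 0.85). These are descriptions over the 60 libraries of a table (59 in lung at day 5), which differ in depth and share dose groups. A few libraries carry much of the day 2 values. In library 64, 36 of the 38 genes lay below the group mean in liver and 34 in lung, by means of -1.08 and -0.46. In library 75, all 38 lay above it in liver and 37 in lung, by means of 0.63 and 0.52. Without both, the day 2 medians were 0.34 in liver and 0.37 in lung.

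Libraries of liver and lung that carry the same title number deviated together. The labels do not say that a number marks an animal. Over 49, 42 and 46 numbers with both organs at days 2, 5 and 28, the correlation between organs was positive for 37, 33 and 35 of the 38 genes, with medians of 0.46, 0.20 and 0.26, beside 0.15, 0.05 and 0.07 over all genes. A permutation of numbers within groups with Benjamini-Hochberg adjustment over all genes called 18 of the 38 at day 2 (6.61% of all genes, with a positive r), 4 at day 5 (1.56%) and 2 at day 28 (2.63%).

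At day 2 Gbp2 had r = 0.77 and Spearman's rho = 0.70 (permutation p = 6e-05, adjusted p = 0.00377, r = 0.71 without the 2 libraries farthest from the median). Gbp3 had r = 0.76 and rho = 0.65 (permutation test, adjusted p = 0.00236, r = 0.55 without those 2). At day 5 Gbp3 had r = 0.69 (permutation test, adjusted p = 0.0048) and was called together with Ifit3, Rtp4 and Irf7. At day 28 Igtp had r = 0.65 and rho = 0.66 (permutation test, adjusted p = 0.00241) and was called together with Irf9, a DNA-binding part of the complex that binds the ISRE. The mean deviation of the 38 genes correlated between organs at r = 0.795, 0.71 and 0.56 (rho = 0.78, 0.64 and 0.48), and at 0.69, 0.61 and 0.54 without the 2 farthest numbers, given as a description.

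**Figure D5:**
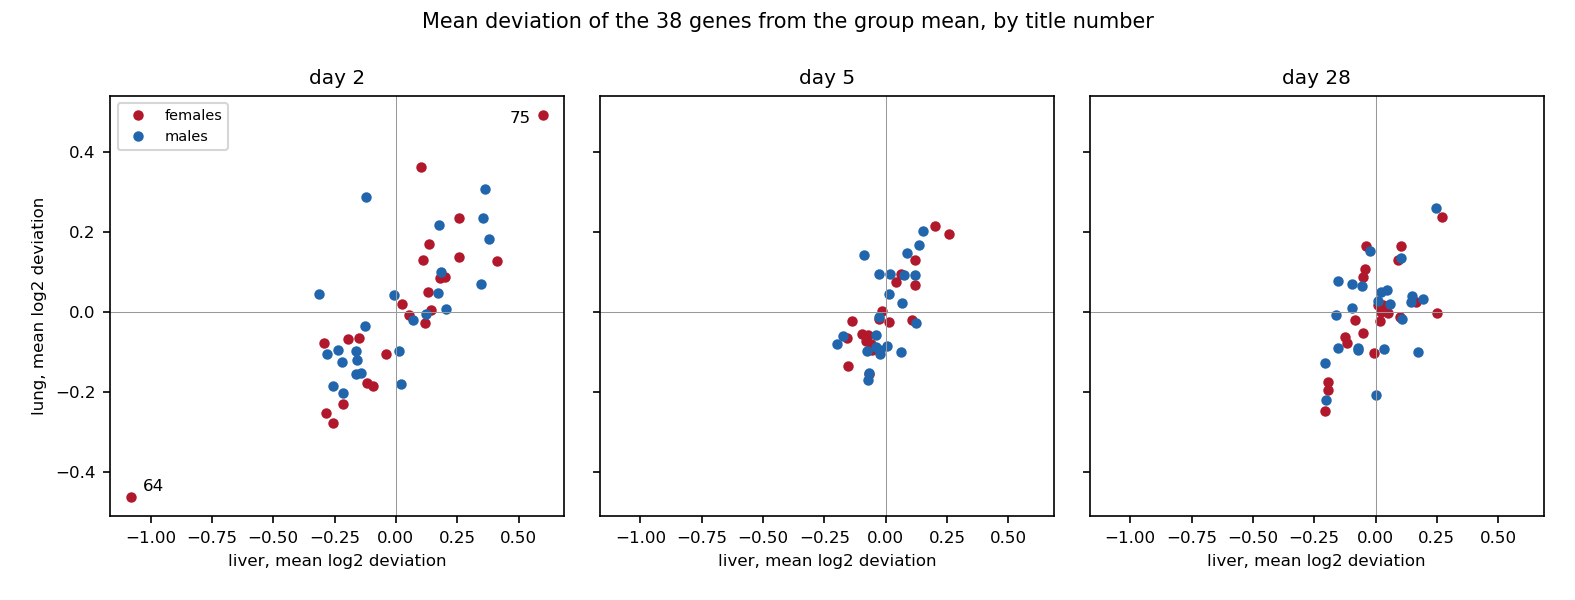
Mean deviation of the 38 genes from their group mean (log2 CPM) in the lung library on the y axis and in the liver library of the same title number on the x axis, for days 2, 5 and 28. Females are red and males blue. Numbers 64 at the low end and 75 at the high end lie far out in both organs at day 2.

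Other genes of the pathway, from lists that hold none of the 38, gave the setting. The 21 interferon genes were nearly silent, and none passed the filter on low counts. In liver 18 or 19 of the 21 had no read in any library, and all 60 libraries of a day held 20, 66 and 67 interferon reads at days 2, 5 and 28, of which 18, 35 and 29 were Ifng, the gene of interferon gamma. In lung 14 to 16 had no read. Ifnb1 had 0 reads in liver. Of the receptor genes, Ifnar1 rose in liver at 300 mg/kg-d by 0.33 in males (adjusted p = 0.00125) and by 0.23 in females (adjusted p = 0.0108), and Ifnar2 rose by 0.23 in males. Of the kinases at those receptors, Jak2 rose by 0.31 in males and 0.34 in females, while Tyk2 fell by 0.21 in males and 0.33 in females. Of all genes 6.47% fell in males and 14.7% in females there. The share of all genes that rose is not given here, so these rises are not set against it.

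Of 42 further interferon-induced genes tested, 17 fell and 1 rose in the livers of females given 300 mg/kg-d, where 14.7% of all genes fell. Those that fell included Apol9b (by 1.08), Uba7, the activating enzyme of ISG15 (by 0.71), and Parp10 (by 0.51), and the ubiquitin ligase Trim25 rose by 0.49. In males at that dose 3 fell and 1 rose, where 6.47% of all genes fell, so the 3 falls were near that share. In females fed 2500 ppm for 28 days 4 fell, where 0.759% of all genes fell. The 4 were Apol9a (by 1.17), Apol9b (by 0.87), Uba7 (by 0.48) and Ly6e (by 0.37). Of 19 genes of antigen presentation, 5 fell in each sex at 300 mg/kg-d, among them the immunoproteasome subunits Psmb9 and Psmb10. In females fed 2500 ppm for 28 days 3 fell, among them Psmb8 (by 0.64). The shares of all genes beside these counts are the same, 14.7% and 6.47% in females and males at 300 mg/kg-d and 0.759% at day 28.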

How the data were processed

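Messenger RNA of liver and lung was sequenced with a TruSeq Stranded mRNA kit, per the labels' protocols. The authors deposited raw counts per gene, 1 table for each organ and day; the submitters' processing notes name Trimmomatic, Bowtie2, SAMtools and HTSeq with mm10, and the strand setting of the counting is not given in the sources used here. Libraries were grouped by their titles, and 1 column that matched no sample was not used. Each table was fitted with edgeR 4.0.16 (R 4.3.3, limma 3.58.1): filterByExpr, TMM scaling, 10 group means, robust quasi-likelihood test, Benjamini-Hochberg adjustment over all genes tested, threshold 0.05. The standard error is the log2 fold change divided by the root of F. CPM values use TMM-scaled library sizes. Organs were compared in joined fits of a day with 20 groups, and vehicle groups of days 5 and 28 in a joined fit of an organ. Deviations used log2 CPM (prior count 2), and organs were correlated by title number with 100000 permutations within groups. The smallest p these can give is 1e-05. Alternatives were DESeq2 1.42.0, RLE size factors, no low-count filter, only the groups compared, left-out libraries, a replicate block, and the place of a number in its block as a term. The fits were tested on simulated data. Every gene called at a highest dose is named, with ranges for those of smallest p in each role list, and other comparisons name a few genes of smallest p or largest change. The 38 genes, the other lists and several tests were chosen with earlier results of these data known.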

Additional observations from a re-analysis of the deposited data

Results flagged for a closer look

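The mean deviation of the 38 genes from their group mean was screened for single libraries far from the rest of their group. It singled out 6 of 60 groups by Dixon's gap criterion, where chance alone singles out about 1 in 20 groups. Library 64 of females given 200 mg/kg-d lay at -1.08 in liver and -0.461 in lung (log2). Library 75 of females given 300 mg/kg-d lay at 0.521 in lung. Library 27 of females given 50 mg/kg-d lay at 0.182 in lung, library 110 of females fed 150 ppm for 5 days at 0.236 in lung, and 1 library of males fed 2500 ppm for 5 days at 0.0912 in liver.

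The effect of 300 mg/kg-d in males differed between organs, liver minus lung on the log2 scale, by -1.13 for Isg15, -0.686 for Dhx58 and -0.643 for Ifi35 in the joined fit. These are 3 of the 38 genes, where 8.26% of all genes were called, so the count is near that share. None of the 3 was called without number 66 of both organs, or with the title number as a replicate block.

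The difference of vehicle females over vehicle males was larger in liver than in lung for 4, 15 and 9 of the 38 genes at days 2, 5 and 28, by the test of the difference itself. That test called 4.76%, 7.84% and 6.66% of all genes, in either direction, at those days. At day 2 the difference was 1.25 for Zbp1, 1.17 for Gbp2, 1.12 for Gbp3 and 0.887 for Ifit3. At day 5 it was 1.56 for Gbp3, 1.37 for Zbp1, 1.34 for Gbp2, 1.12 for Ifit3, 0.862 for Ifi44 and 0.832 for Trim30a. The other day 5 genes were Ifit1 at 0.723, Ddx60 at 0.665, Ifit2 at 0.634, Oasl2 at 0.605, Herc6 at 0.506, Igtp at 0.48, Parp14 at 0.478, Ddx58 at 0.44 and Ifih1 at 0.423. At day 28 it was 1.41 for Gbp3, 1.33 for Zbp1, 1.13 for Ifit3, 1.08 for Gbp2 and 0.929 for Ifit1. Usp18 followed at 0.861, Ifit2 at 0.812, Ddx60 at 0.68 and Trim30a at 0.644.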

How the results depend on the processing

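Counts of called genes among the 38 stayed within 1.5 times of the reported ones under RLE size factors, and no direction reversed under the alternatives run. Of 46 called fold changes, DESeq2 kept all 45 it gave an adjusted p, leaving out the low-count filter lost 7, and fitting only the groups compared lost 15 of 45. DESeq2 gave 0 calls in female liver at day 5 and 1 in male liver at day 28 at the highest dose, 5 and 2 at lower doses of day 28 in liver and lung, 2 for the day 28 lung trend, and 4 for the sexes in vehicle lungs of day 5. Without the low-count filter the highest dose in male liver of day 2 gave 3, the day 5 liver trend 1, vehicle livers of day 28 against day 5 1, and the organ difference in day 2 males 1. With only the groups compared, the highest dose gave 0 in female liver of day 5, 12 in female lung of day 2 and 0 in female lung of day 28. Lower doses then gave 1 in liver of day 2, 0 in liver and lung of day 28, and 1 in lung of day 5, and the sexes 11 in vehicle livers of day 2 and 1 in vehicle lungs of day 5. It was not run for the trend. The place of a number in its block was also added as a term. It does not adjust for the order of the blocks, which follows dose. With it the highest dose gave 2 in female liver of day 5 and 8 in female lung of day 2. Lower doses then gave 1 and 0 in lung of days 2 and 28, the day 2 lung trend 14 and vehicle lungs of day 5 3. The following settings were chosen after seeing the data. Without both numbers 64 and 75, the highest dose in females of day 2 gave 24 in liver and 15 in lung, lower doses in liver 5, the lung trend 13, the sexes in vehicle livers 12, the organ difference in females 3, and the median pair correlation in liver 0.338.

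Leaving out single libraries gave 12 to 22 calls for females and 2 to 8 for males in liver at 300 mg/kg-d, 1 to 10 for female lungs, 5 to 11 at lower doses in liver and 0 to 4 in lung of day 2, and 6 to 16 for the day 2 lung trend. The day 28 lung calls went to 0 without library 176, at the highest dose and at 300 ppm. Without number 66 the organ difference in males of day 2 gave 0. With the title number as a replicate block in the joined fits, the organ difference in day 2 males gave 0 calls, and lung against liver gave 32, 32 and 35 calls at days 2, 5 and 28, with no other call count moved by over 1.5 times. The pairing is a hint from the data only. The correlation of a number's liver and lung libraries over all genes was above 0.1 for 37 of 49, 18 of 42 and 26 of 46 numbers, and 18, 4 and 14 numbers correlated best with their own. Genes near 1 CPM, such as Mx1, Oas1g and Cxcl10, rest on few reads per library, which limits their precision.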
